A study of Mus musculus with 2 samples.

Results

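The genes described here encode subunits of the phagocyte NADPH oxidase. They were chosen by name, not by their values: Cyba, Cybb, Ncf1, Ncf4, Rac1 and Rac2, which are 6 of the 17873 genes on the arrays and were read by 7 of 25697 probes. The study profiled wounded back skin of C57BL6 mice at 3 months of age on a low calcium diet. Control mice were b-catenin fl/fl, and knockout mice were b-catenin fl/fl with Cre driven by K14 (keratin 14), littermates of the controls. Each mouse had 2 full-thickness wounds from a 6-mm punch, and the tissue was taken 3 days later with an 8-mm punch, so a sample holds wound bed, wound edge and some surrounding skin. There was 1 array per group. The study gives n=3 for each group, which was read here as RNA of 3 mice pooled on each array. With 1 array per group, no difference below has an error estimate or a test.

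The phagocyte NADPH oxidase passes electrons from NADPH to oxygen and makes superoxide, from which neutrophils and macrophages form the oxidants that kill microbes. A membrane heterodimer, the catalytic subunit encoded by Cybb and its partner encoded by Cyba, stays idle until cytosolic subunits, among them those encoded by Ncf1 and Ncf4, and a Rac GTPase join it. In humans, loss of a subunit causes chronic granulomatous disease. Neutrophils enter a skin wound first and macrophages follow. Keratin 14 marks basal keratinocytes, so the deletion is not directed at the leukocytes in which this oxidase is best known.

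A probe was called detected where fewer than 1% of the negative control beads were as bright, which is a raw intensity of at least 181.8 on the control array and 177.9 on the knockout array. Raw intensities ran from 118.5 to 40798.1 and from 120.4 to 40969.4. The knockout array was dimmer for most genes, with a median log2 fold of -0.14 in raw intensity over the 9710 genes detected on at least 1 array. The targeted gene Ctnnb1 had normalized intensities of 2325 (control) and 2344 (knockout) on its brighter probe, and 1048 and 932 on the other. Whether these probes lie in the deleted part is not known here, and a wound holds cells without keratin 14, so Ctnnb1 checks nothing about the labels. All 12 listed keratinocyte markers were detected. The arrays also differed in markers of other cell types. Red blood cell markers had a median log2 fold of -1.75 (-1.12 in the authors' intensities, 4 of 4 detected). Skeletal muscle markers had one of 0.48 (13 of 13 detected), led by Myl2 at 5.40 (4.29 in the authors' intensities). Of the 13, 10 lay above 0 and 3 below. The bright Acta1 stood at -0.01, so Myl2 does not stand for the whole list.

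Of the 6 subunit genes, 5 were detected, each on both arrays, and none differed by 1.5-fold between them. Ncf1, Cyba and Ncf4 lay lower in the knockout array and Rac2 and Rac1 lay higher, with a median log2 fold of -0.07 over the 5. The widest difference was 1.26-fold, in Rac1. Over all detected genes, 8.00% differed by at least 1.5-fold, 3.52% being higher and 4.48% lower, and the lower and upper quartiles of all log2 folds lay at -0.19 and 0.18. Cyba, Ncf4 and Rac2 lay between these quartiles, and Ncf1 and Rac1 lay outside them.

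**Figure D1:**
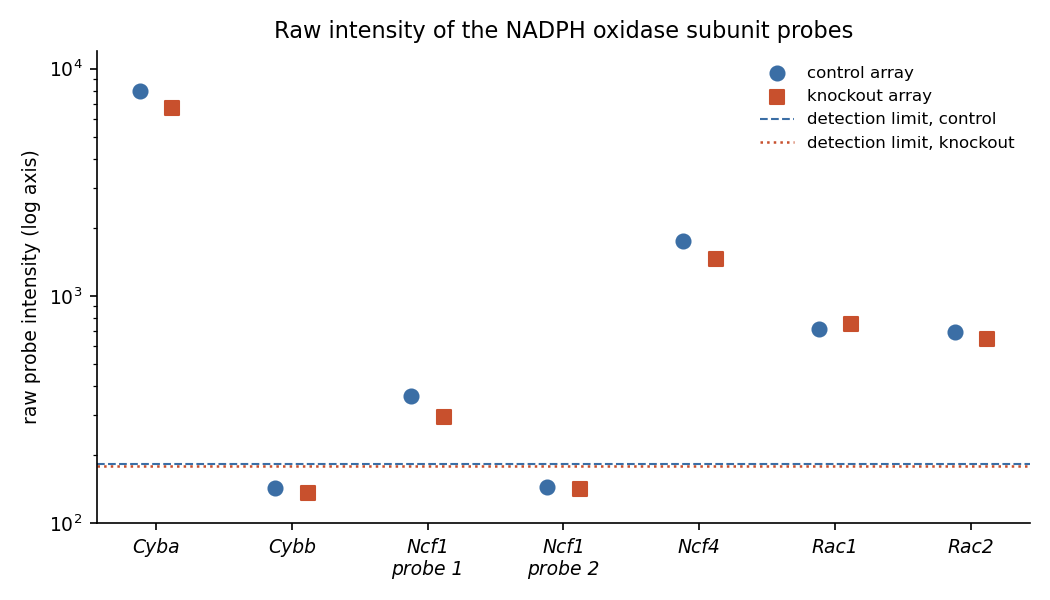
Raw intensity (log axis) of the 7 subunit probes on the control array (circles) and the knockout array (squares), with the detection limit of each array as a horizontal line. The Cybb probe and the second Ncf1 probe sit below both limits, and the other 5 probes sit above them.

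The membrane subunits gave one bright and one undetected reading. Cyba, the smaller partner that stabilises the heterodimer, had a raw intensity of 7993.8 on the control array and 6689.5 on the knockout array, or 7469 and 6914 after normalization. The control value was the higher by 1.08-fold, a log2 fold of -0.11. Its raw signals were 44.0 and 37.6 times the detection limits, far above background. Among the 500 genes nearest to it in brightness, the quartiles lay at -0.12 and 0.11, so Cyba lay between the quartiles of genes as bright.

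Cybb, the catalytic subunit that carries the electrons, was not detected on either array. Its only probe gave raw intensities of 143.3 (control) and 135.8 (knockout), below both limits. On the control array 61.9% of negative controls were at least as bright, and on the knockout array 86.3%. No fold is given for Cybb, since neither value is above background. This says only that the probe gave no signal, not that the wounds lacked the transcript. The array's annotation lists the Cybb probe under the MEEBO collection, of whose 8229 probes 50.6% were detected, against 50.4% of the 17468 listed under RefSeq. The rule for calling detection matters here, because the detection p-values deposited beside Cybb (0.00627 in the control) are out of row order and would have called it detected.

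Ncf1, the organizer that carries the cytosolic subunits to the membrane once it is phosphorylated, had 2 probes, and these did not read alike. The brighter gave raw intensities of 362.8 (control) and 293.1 (knockout), or 216 and 174 after normalization. That is 1.24-fold lower in the knockout, a log2 fold of -0.31, the lowest among the subunits. The other probe, listed for the same transcript, read 144.5 and 140.7, below both limits, with 56.8% and 71.9% of negative controls as bright. Ncf1 therefore rests on 1 probe at 1.996 and 1.65 times the detection limits. For genes of that brightness the quartiles lay at -0.23 and 0.20, and 33.6% of the 500 nearest genes differed by more than Ncf1 did. Among all detected genes 15.7% had a lower log2 fold. In the authors' normalized intensities, from which background was not subtracted, the Ncf1 log2 fold was -0.18.

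Ncf4, the cytosolic subunit that binds phosphatidylinositol 3-phosphate on phagosomes, had raw intensities of 1743.1 in control and 1451.4 in knockout skin. After normalization the values were 1498 and 1430, a log2 fold of -0.07, or 1.05-fold lower in the knockout. The raw gap was wider, and 78.4% of detected genes had a lower raw intensity on the knockout array. Of the 500 genes nearest in brightness, 76.0% differed by more than Ncf4 did. Ncf4 was thus the subunit whose quantile-normalized values were closest on the 2 arrays. Under median scaling Rac2 was closer, at -0.03 beside -0.19 for Ncf4.

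The Rac GTPases switch the oxidase on when bound to GTP. Rac2 is found mainly in blood cells and is the main form in neutrophils, while Rac1 is present in nearly all cells and also drives lamellipodia and cell migration. Rac2 had raw intensities of 693.7 in control and 645.3 in knockout skin, or 523 and 561 after normalization, a log2 fold of 0.10. Rac2 was lower in raw intensity and higher after quantile normalization, so its direction depended on the scaling. Rac1 was the only subunit brighter in raw intensity on the knockout array, at 714.3 (control) and 754.2 (knockout). After normalization Rac1 read 539 and 679, 1.26-fold higher in the knockout with a log2 fold of 0.33. A lower log2 fold than that of Rac1 was seen for 88.0% of detected genes, and 22.0% of the 500 genes nearest in brightness differed by more. Each Rac gene was read by a single probe.

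**Figure D2:**
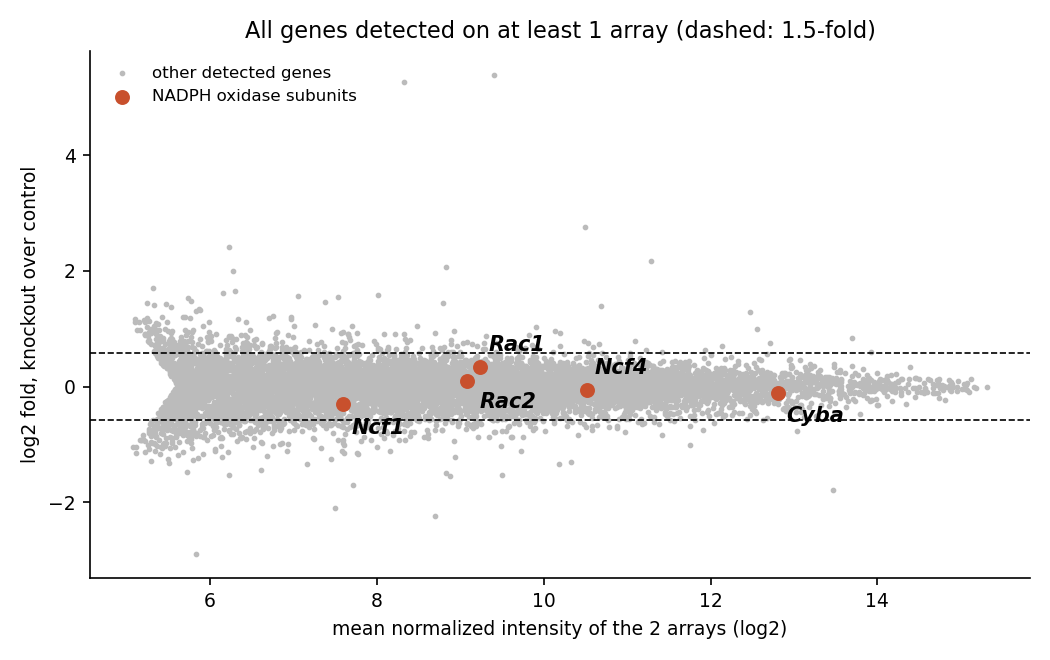
Log2 fold of knockout over control against mean normalized intensity (log2) for the 9710 detected genes (grey), with the 5 detected subunits in orange and 1.5-fold as dashed lines. All 5 lie between the dashed lines, from Ncf1 at -0.31 to Rac1 at 0.33.

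Set against the median of all genes, the direction of each subunit did not depend on the scaling. Median scaling in place of quantile normalization moved the median of all detected genes from 0.0041 to -0.10, so each subunit was also set against that median. Under 6 scalings, raw intensities included, Ncf1 lay 0.17 to 0.31 below the median of all detected genes on the log2 scale, Cyba 0.06 to 0.12 below it and Ncf4 0.07 to 0.12 below it. Rac2 lay 0.04 to 0.10 above it and Rac1 0.22 to 0.33 above it. Without that reference, Rac2 was the subunit that turned sign, to -0.03 under median scaling and -0.10 in raw intensity.

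**Figure D3:**
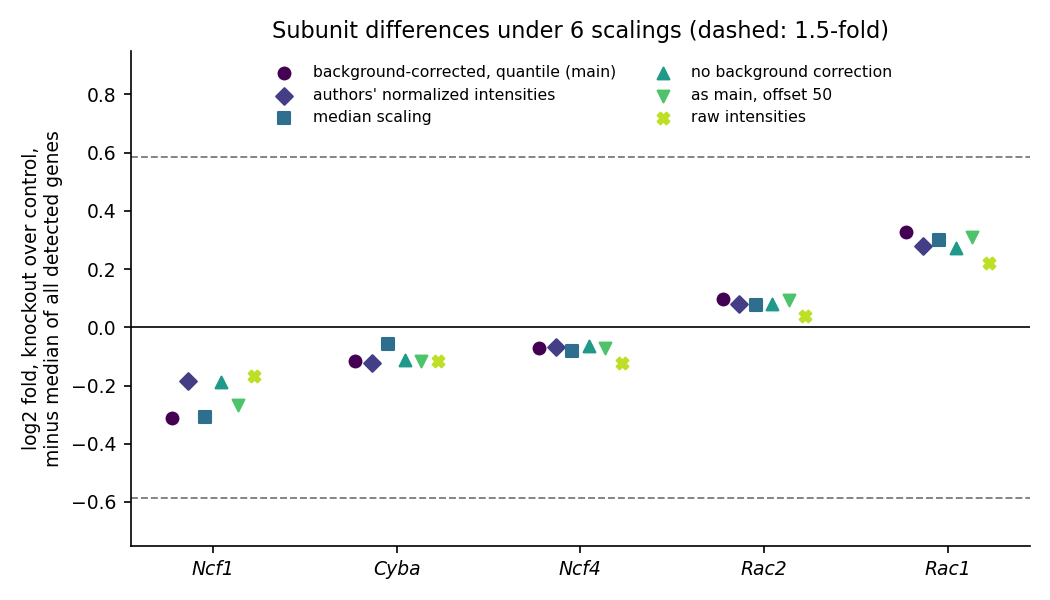
Log2 fold of knockout over control, minus the median of all detected genes, for the 5 detected subunits under 6 scalings (symbols), with 1.5-fold as dashed lines. Ncf1, Cyba and Ncf4 are below 0 and Rac2 and Rac1 above 0 under each of the 6, and none reaches a dashed line.

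The difference between the log2 folds of 2 subunits was taken for each of the 10 pairs. Of these it was widest for Ncf1 and Rac1, at 0.64 after normalization and 0.39 in raw intensities. Rac1 exceeded Cyba by 0.34 to 0.44 and Ncf4 by 0.34 to 0.40 over the scalings compared. As a measure of disagreement between probes, the 2 probes of a gene were compared over 1552 genes with exactly 2 probes detected on both arrays. Their log2 folds differed by a median of 0.19, and by less than 0.51 in 90% of cases. Both probes of a gene were read on the same 2 arrays, so this is no error estimate for a fold. Of the 10 pairs of subunits, 8 differed by more than that median and 1, Ncf1 and Rac1, by more than 0.51. In raw intensities, where the median difference between 2 probes was 0.14 and 90% lay below 0.34, the same counts were 7 and 2. Against their own limits, they were 7 and 3 in the authors' intensities and also with no background correction. The 10 pairs come from only 5 genes. No such count was made for pairs of other genes, so these counts do not set the subunits apart. Cyba and Ncf4 differed by -0.05 to 0.03 over the scalings, so their order was not fixed. The levels of different subunits were not ranked, since the brightness of a probe depends on its sequence.

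Other genes of the oxidase family and its assembly were read from a list of 10, of which 8 were on the arrays and 3 were detected, each below 0. Cybc1, a chaperone needed for the membrane heterodimer to mature, read 935 and 894 (log2 fold -0.06). Nox4, an oxidase that makes mostly hydrogen peroxide and is found in fibroblasts and other non-phagocytic cells, read 149 and 105 (log2 fold -0.50, or -0.23 in the authors' intensities). Noxo1, the organizer paired with the epithelial oxidase Nox1, read 84.2 and 67.5 (log2 fold -0.32, or -0.10 in the authors' intensities). It was near the detection limit, and its other probe stood at -0.67. Nox1, Nox3, Noxa1, Duox2 and Duoxa1 were not detected, and Duox1 and Duoxa2 were not matched to a probe.

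Beyond the family, genes of oxidase activation, of Rac regulation, of oxidant handling and of phagocyte transcription were read from fixed lists. With the family list these held 83 genes, of which 75 were on the arrays and 54 were detected. Of the 54, 21 lay above 0 and 33 below, with a median of -0.07. Of all detected genes, 50.5% lay above 0 and 49.3% below. Median scaling put the median of all detected genes at -0.10, so counts on each side of 0 move with the scaling. Of the 54, 0 were higher and 2 lower by 1.5-fold or more. The 2 make up 3.70% of the 54, beside 4.48% of all detected genes lower and 3.52% higher by that much. The 2 were Prkcb and Prkca, kinases of the protein kinase C family, members of which phosphorylate the Ncf1 protein. Prkcb read 855 and 569 (normalized intensity in control, then knockout; log2 fold -0.59), and Prkca was detected in the control only, with a bound of -0.31, so that with Prkca at its bound 1 of the 54 was lower by that much. In the authors' intensities 0 genes passed 1.5-fold in either direction and Prkcb stood at -0.52. Under median scaling 5 were at least 1.5-fold lower, and 2 once the median of all genes was taken off.

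Receptors that trigger the oxidase, with the inhibitory Fcgr2b counted among them, were detected in 11 of 13 cases on the arrays. Of the 11, 4 lay above 0 and 7 below, with a median of -0.17. Clec7a (dectin-1), the receptor for fungal beta-glucans, read 262 and 179 (log2 fold -0.55), and its 3 detected probes ran from -1.35 to -0.55. Fcgr2b, the inhibitory Fc receptor, read 5768 and 4264 (-0.44, other probe -0.29), and Tlr4, the endotoxin receptor, 343 and 275 (-0.32). Itgb2, the beta chain of the leukocyte integrins, stood at 0.35 but was near the detection limit (raw intensity 185.7 and 193.4). The chemoattractant receptors Fpr1 and C5ar1 were not detected. Fpr2, another chemoattractant receptor, was detected on both arrays and read 2607 and 3147 (0.27).

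Kinases, lipid enzymes and adaptors had a median of -0.20 over 11 detected genes. Of these, 3 lay above 0 and 8 below, or 0 and 11 under median scaling. Prkcb was the one detected on both arrays that passed 1.5-fold. Small GTPases and their regulators had a median of -0.04 over 10 detected genes, with 4 above 0 and 6 below. Vav3, an exchange factor that loads Rac with GTP, read 1651 and 1226 (log2 fold -0.43), and Tiam1, another Rac exchange factor, 3988 and 3270 (-0.29). Rac3, the remaining Rac gene, stood at 0.31 with its other probe at 0.25, close to Rac1 in direction and size, and Arhgdig, an inhibitor of such GTPases, stood at 0.45 (130 and 178).

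Oxidant-handling genes were balanced after quantile normalization, with 5 of 10 detected members above 0, 5 below and a median of 0.01. Under median scaling 3 lay above 0 and 7 below. The list median was then -0.07, beside -0.10 for all detected genes. Catalase (Cat), which breaks down hydrogen peroxide, read 366 and 258 (log2 fold -0.51). Sod2, the mitochondrial superoxide dismutase, read 5758 and 6735 (0.23), the extracellular Sod3 534 and 611 (0.19), and the secreted peroxidase Gpx3 16851 and 14382 (-0.23). Myeloperoxidase (Mpo), which turns hydrogen peroxide into hypochlorous acid in neutrophils, was not detected. Transcription factors of phagocyte genes had a median of 0.04 over 9 detected members, with 5 above 0 and 4 below. Among them were Spi1 (PU.1), a regulator of several oxidase genes, at 0.19 (194 and 221), Irf8 at -0.27 (156 and 129), Cebpa at 0.19 and Runx1 at 0.19.

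**Figure D4:**
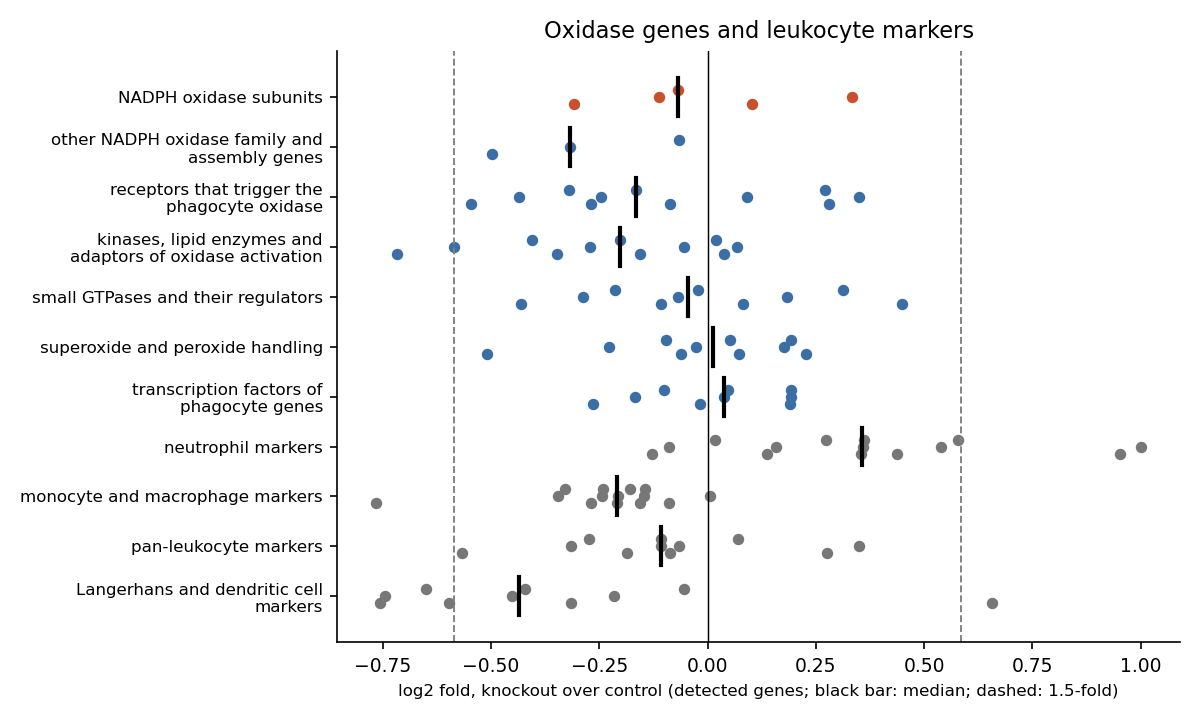
Log2 fold of knockout over control for each detected gene of the subunits (orange), the 6 lists of related genes (blue) and 4 leukocyte marker lists (grey), with medians as black bars and 1.5-fold as dashed lines. The subunit median (-0.07) lies between the medians of the neutrophil markers (0.36) and of the monocyte and macrophage markers (-0.21).

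Markers of the cells that carry the oxidase lay on opposite sides of 0. Of all detected genes, 50.5% lay above 0 and 49.3% below. Neutrophil markers lay above 0 in 12 of 14 detected members, with a median of 0.36 (0.18 in the authors' intensities), and 2 were at least 1.5-fold higher, beside 3.52% of all detected genes. They were the chemokine receptor Cxcr2 (0.95, or 0.56 and short of 1.5-fold in the authors' intensities) and Lcn2 (normalized intensity 4273 and 8557), which keratinocytes also make. The normalized intensities of the 14 neutrophil markers summed to 65490 on the control array and 77553 on the knockout array. Bright probes lead such a sum. Most of its rise came from Lcn2, S100a8 (26091 and 28697) and S100a9 (11686 and 14997). As keratinocytes also make Lcn2, the sum does not measure neutrophils alone. Monocyte and macrophage markers lay below 0 in 13 of 14 detected members, with a median of -0.21 and 1 at least 1.5-fold lower, the mannose receptor Mrc1 (-0.77), beside 4.48% of all detected genes. The sum of the monocyte and macrophage markers was 99259 and 84414. The neutrophil markers Mmp8 and Ngp and the monocyte receptor Ccr2 were not detected, nor was the macrophage transcription factor Maf. Pan-leukocyte markers had a median of -0.11 over 11 detected members, with 3 above 0, 8 below and sums of 46851 and 44053, and Ptprc (CD45) was not detected. In whole tissue, fewer cells of a type and less RNA per cell cannot be told apart. The part of these cell types in the subunits' values was not tested.

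With 2 arrays, likeness in pattern can only mean a like fold between them. Among 64 detected genes of the leukocyte marker lists, the 5 nearest to the median of the 4 detected subunits other than Rac1 (-0.09) were Il1r2 (-0.09), Cd68 (-0.09), Laptm5 (-0.09), Arhgdib (-0.11) and Lsp1 (-0.11). Il1r2 is listed with neutrophils, Cd68 with macrophages, and Laptm5, Arhgdib and Lsp1 with all leukocytes. Only leukocyte lists were searched, so the result cannot set leukocytes apart from other cells. The fibroblast marker Dcn also stood at -0.09. The subunit median of -0.09 lies between the quartiles of all detected genes, and the 4 subunits ran from -0.31 to 0.10.

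The other marker lists were as follows. For Langerhans and dendritic cells, 10 markers were detected and 9 of them lay below 0 (median -0.44). Of the 9, 4 were at least 1.5-fold lower, beside 4.48% of all detected genes. These 4 were Cd207 (-0.74, or -0.58 in the authors' intensities), Ciita (-0.76, or -0.49), Cd209a (-0.65, or -0.29) and Zbtb46 (-0.60, or -0.18). In the authors' intensities each of the 4 fell short of 1.5-fold. Zbtb46 was near the detection limit in the knockout (raw intensity 182.8). Xcr1, the marker above 0, stood at 0.66 but was detected in the knockout only, with a bound of 0.36. T cell and NK cell markers had a median of -0.24 over 8, led by Xcl1 (-1.20, or -0.49 in the authors' intensities). Mast cell markers had a median of 0.16 over 6, 1 B cell marker was detected (Cd79b, 0.09), and 0 of 6 eosinophil and basophil markers were. Endothelial markers lay above 0 in 8 of 8 cases (6 of 8 under median scaling), with a median of 0.27. Medians were 0.01 for keratinocyte markers, 0.08 for fibroblast markers and -0.35 for adipocyte markers. Rac1 is expressed in all of these cells, and its probe cannot say in which of them it was read.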

How the data were processed

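Labelled RNA was hybridised to Illumina bead arrays, 1 per group. GenomeStudio 2011.1 is named in the submitters' processing notes. The authors deposited raw probe intensity and normalized probe intensity on a linear scale, per the file headers. How they were normalized is not stated in the sources used here, and background was not subtracted. The deposited detection p-values were out of row order (Spearman's rho with intensity 0.0024 and -0.00041 across probes), so within an array the smallest p-value was assigned to the brightest probe, and so on by rank. Raw intensities were processed in R 4.3.3 with limma 3.58.1, function neqc (normexp background correction, offset 16, quantile normalization, log2) and the steps were tested on simulated data. Normalized values here are on this scale, made linear again.

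A gene's value was its brightest probe. Symbols of list genes were updated through RefSeq tables of GRCm38.p6 (25376 of 25697 probes matched). Genes were counted at 1.5-fold, a rule of size with no p-value. For a gene detected on 1 array the bound uses the lowest detected value of the other. The subunits and the 20 lists (6 of related genes, 14 of cell markers) were chosen with earlier results of these data known. Some genes of these lists are not reported here and were left out of the counts. All subunit probes were named. Related genes were named at 1.5-fold, or else up to 4 of the widest differences of a list. Up to 4 of the widest could be named for a leukocyte marker list and up to 2 for another marker list, and not all of these are given. A further 5 were named for their likeness to the subunits. Of the other genes named, those not detected complete their list's count. Acta1, Fpr2, S100a8, S100a9, Zbtb46 and Dcn are given as limits of a reading, a sum, a count or a likeness. Alternatives were the authors' intensities, median scaling, no background correction, an offset of 50, the mean over detected probes, no detection filter and a 5% limit.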

Additional observations from a re-analysis of the deposited data

How the results depend on the processing

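The 5 detected subunits kept to less than 1.5-fold, and their log2 folds moved by less than the spread of all detected genes (0.28 on the log2 scale), under each of the 7 alternatives. The mean over detected probes, no detection filter and the 5% limit could not move these folds. Each detected subunit had 1 detected probe, which was also its brightest. Over the 7, Cyba ranged from -0.16 to -0.11, Ncf1 from -0.41 to -0.18, Ncf4 from -0.19 to -0.06, Rac1 from 0.20 to 0.33 and Rac2 from -0.03 to 0.10. The count of related genes at least 1.5-fold lower, 2 as reported, was 0 in the authors' intensities, 0 with no background correction, 0 with an offset of 50, 3 with the mean over detected probes and 5 under median scaling. Use of the detection p-values as listed, an alternative chosen after seeing the data, gave 1, and it would have called Cybb detected and left Ncf1 and Ncf4 out. Low signal limits Ncf1, whose fold shrinks where background is kept. No paired analysis was possible because each group has 1 array and the labels give no replicate numbers.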
